A study of Mus musculus with 24 samples.

Results

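The 9 genes described here are the nuclear receptors Ppara and Ppard, the fatty acid transporter Cd36, the fatty acid binding protein Fabp3, the lipid droplet protein Plin2, the secreted lipase inhibitor Angptl4, the mitochondrial carrier Ucp3 and the acyl-CoA thioesterases Acot1 and Acot2. They were taken by name. Each is represented by the transcript cluster (a set of array probes assigned to a locus) whose only gene symbol is that name, and where a gene had several such clusters, by the one with the highest mean. All 9 were found among the 22180 genes tested, and they were proposed with earlier results of these data known. The mean level chose between clusters for Fabp3 alone, the 1 member with 2 clusters, and no difference between groups entered the rule. The RNA came from primary muscle cells of the quadriceps of ICR mice, an outbred strain, differentiated in culture and hybridised to 24 expression arrays.

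There were 4 groups of 6 arrays. Undernourished limited cells came from offspring of dams given 50% of the control food amount from gestation day 12.5, and were kept overnight in a limited medium (1% serum, with glucose and carnitine at 0.5 mM and glutamine at 1 mM). Undernourished standard cells had the same maternal diet and a standard differentiation medium with 5.5 mM glucose and 2% serum. Control limited and control standard cells came from offspring of control dams, kept in the same pair of media. Litters of both diets were set to 8 pups, and the labels name no genetic change. The limited medium differs from the standard medium in several components at once, so the effect of glucose alone cannot be told apart from that of serum, glutamine or carnitine. The labels number the cultures, and each of the 12 numbers has a limited and a standard array. What a number stands for (a mouse, a litter, a dish) is not stated, so the p-values reflect variation among these samples, which could be partly technical.

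Peroxisome proliferator-activated receptors (PPARs) are nuclear receptors that bind fatty acids and their derivatives and, paired with a retinoid X receptor, switch on genes of fatty acid uptake, storage and oxidation. In skeletal muscle, PPAR target genes are known to rise in fasting and in endurance exercise, when fatty acids are the main fuel. Acyl-CoA thioesterases split activated fatty acids into the free acid and coenzyme A, Acot1 in the cytosol and Acot2 in the mitochondrial matrix.

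Values are log2 signals as deposited, with array medians of 5.60 to 5.81, and a difference of 1 is a doubling of signal. The cultures carried muscle transcripts: the mean of 15 myotube markers ran from 10.45 to 11.52 over the 24 arrays, while the mean of 7 adipocyte markers ran from 4.79 to 5.03 and that of 8 endothelial markers from 5.23 to 5.53. Between these, the mean of 8 satellite cell and myoblast markers ran from 9.01 to 9.63, and that of 6 smooth muscle and pericyte markers from 7.00 to 8.01. A pair of cultures stood apart in other markers. The mean of 7 fibroblast markers was 7.02 in undernourished culture 20 and 7.31 in control culture 16, against 5.43 to 6.10 in the other 10 cultures. The mean of 4 glial markers was 7.09 in undernourished culture 20, against 4.75 to 5.68 in the other 11. The part of these marker levels in the results was not tested, and the values without both cultures are given beside the results they touch. In these bulk cultures, fewer cells of a type and less RNA per cell cannot be told apart.

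The promoters of 3 members are shown because these are the pair of neighbouring thioesterases of which 1 responded to the medium, and the gene with most matches to the PPAR half-site. They are RefSeq promoters on GRCm38.p6, from 250 bases before to 50 bases after the gene's start, at chr12:83987611-83987910 (Acot2), chr12:84009252-84009551 (Acot1) and chr7:100472741-100473040 (Ucp3), all on the plus strand and written 5′ to 3′. Capitals mark the half-site AGGTCA.
Acot2: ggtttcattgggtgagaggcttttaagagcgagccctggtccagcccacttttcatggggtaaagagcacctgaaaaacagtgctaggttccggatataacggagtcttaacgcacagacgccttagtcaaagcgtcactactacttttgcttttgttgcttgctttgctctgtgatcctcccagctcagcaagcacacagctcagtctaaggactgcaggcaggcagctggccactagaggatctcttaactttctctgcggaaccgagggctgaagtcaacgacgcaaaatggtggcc
Acot1: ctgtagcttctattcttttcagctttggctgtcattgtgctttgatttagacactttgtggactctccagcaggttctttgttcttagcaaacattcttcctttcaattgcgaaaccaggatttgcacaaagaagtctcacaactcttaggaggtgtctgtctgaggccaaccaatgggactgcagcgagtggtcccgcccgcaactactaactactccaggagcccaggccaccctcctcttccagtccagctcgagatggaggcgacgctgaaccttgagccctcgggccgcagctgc
Ucp3: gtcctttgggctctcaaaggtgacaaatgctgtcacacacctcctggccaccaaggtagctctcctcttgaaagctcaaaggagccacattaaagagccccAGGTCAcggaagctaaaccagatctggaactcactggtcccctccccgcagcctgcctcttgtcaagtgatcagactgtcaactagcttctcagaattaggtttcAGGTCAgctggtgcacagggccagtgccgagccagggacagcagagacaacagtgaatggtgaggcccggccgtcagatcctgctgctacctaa
The table held a promoter for 8 of the 9 genes, all but Angptl4. The direct repeat that PPARs bind, AGGTCANAGGTCA on either strand, was found in none of the 8, against 13 of 32851 promoters in the table (0.0396%). With the fourth base of each half-site free (AGGNCANAGGNCA) it was again in none of the 8, against 125 promoters (0.381%). The single half-site AGGTCA, which is a part of the exact repeat, was in 16.3% of all promoters. Among the members, Ucp3 held 2 in the direction of the gene, and Plin2 and Cd36 held 1 each on the strand opposite to the gene. These letters are a description of a short window and say nothing of sites further away.

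Of the 9 genes, Acot2 alone rose in limited medium over both diets, and no member fell (limma, Benjamini-Hochberg adjusted p under 0.05). Across all 22180 genes, 6.84% passed in either direction, 3.56% rising and 3.28% falling. The mitochondrial thioesterase reached 12.50 ± 0.63 in undernourished limited cells, against 10.93 ± 0.66 in undernourished standard cells, and 11.60 ± 0.60 in control limited cells, against 11.02 ± 0.70 in control standard cells (SD, n = 6 each). The receptors, the transporter, the binding protein, the droplet protein, the lipase inhibitor, the uncoupling protein and the cytosolic thioesterase differed by -0.13 to 0.25 between media. Maternal diet changed none of the 9 past the threshold.

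**Figure D1:**
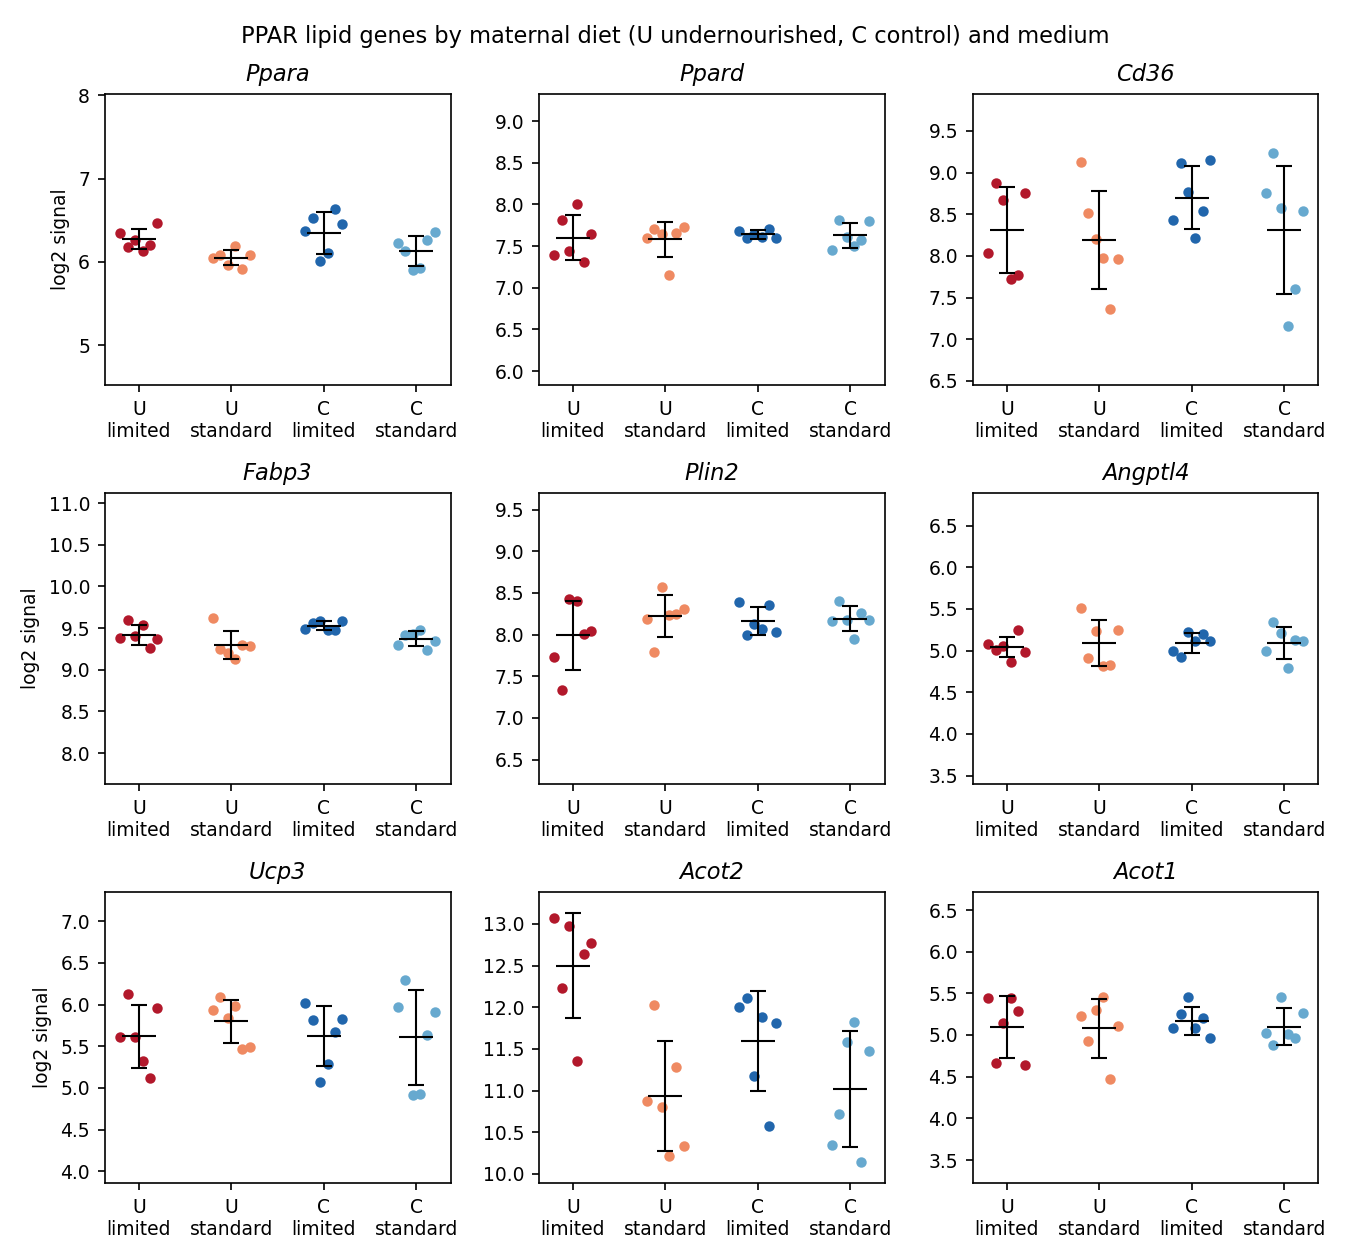
Log2 signal of each of the 9 genes (y axis, every panel spanning the same number of log2 units) in the 4 groups of maternal diet and medium (x axis). Points are arrays, and bars are the mean and SD over 6 arrays. The Acot2 panel has its highest mean, 12.50, in undernourished limited cells, and the groups overlap in every panel.

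Acot2 ran from 11.36 through a median of 12.70 to 13.07 in undernourished limited cells, and from 10.22 through 10.84 to 12.02 in undernourished standard cells. In control limited cells it ran from 10.58 through a median of 11.85 to 12.11, and in control standard cells from 10.15 through 11.10 to 11.82. The limited groups were higher in mean and median with both diets, but their ranges overlapped those of the standard groups. Over both diets the difference was 1.08 ± 0.24 (SE), with a 95% interval of 0.58 to 1.58, a 2.11-fold higher signal in limited medium (limma adjusted p = 0.00751). It was higher in 11 of 12 cultures. Without undernourished culture 20 and control culture 16, whose fibroblast markers stood apart, it was 1.22 ± 0.24 (adjusted p = 0.00294).

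In undernourished cultures Acot2 rose by 1.58 ± 0.34 (SE), 2.99-fold (limma adjusted p = 0.0189), higher in 6 of 6 cultures, in a comparison where 1.46% of all genes passed and 0.726% rose. That call rests on the whole set of arrays: fitted on the undernourished arrays alone the adjusted p was 0.0545. Without undernourished culture 1 it was 0.0619, without culture 4 it was 0.113, without culture 9 it was 0.0719 and without culture 12 it was 0.105, while the difference stayed between 1.41 and 1.62 in those 4 fits. In control cultures the difference was 0.58 ± 0.34, with an interval of -0.12 to 1.28 and an adjusted p of 0.483, and 5 of 6 cultures were higher. No member passed there, against 0.343% of all genes (0.167% rising, 0.176% falling), and 2 members, Fabp3 and Ppara, had an unadjusted p under 0.05.

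The response of Acot2 differed widely between cultures. Among undernourished cultures the limited minus standard difference was 2.43 in culture 12, 2.19 in culture 9, 2.16 in culture 4, 1.35 in culture 1, 1.14 in culture 20 and 0.21 in culture 8. The arrays numbered 12 and 9 correlated at 0.02 and -0.05 with their own number after group means were removed. They were not closest to their own number, so whether those differences are responses within 1 culture is uncertain. Culture 8 had the highest standard level of its group, 12.02. That level is subtracted in its difference, and a relation of level to response was not tested. Among control cultures it was 1.66 in culture 5, 1.39 in culture 24, 0.43 in culture 11, 0.34 in culture 10, 0.07 in culture 15 and -0.41 in culture 16. The ranges of both diets overlapped, with means of 1.58 ± 0.84 in undernourished and 0.58 ± 0.79 in control cultures (SD, n = 6 each). The difference between the diets' responses was 1.00 ± 0.48 (SE), with a 95% interval of 0.01 to 1.99, an unadjusted p of 0.0487 and an adjusted p of 1 (limma), so it did not pass. No gene passed in that comparison (0% of 22180, 643 with an unadjusted p under 0.05).

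**Figure D2:**
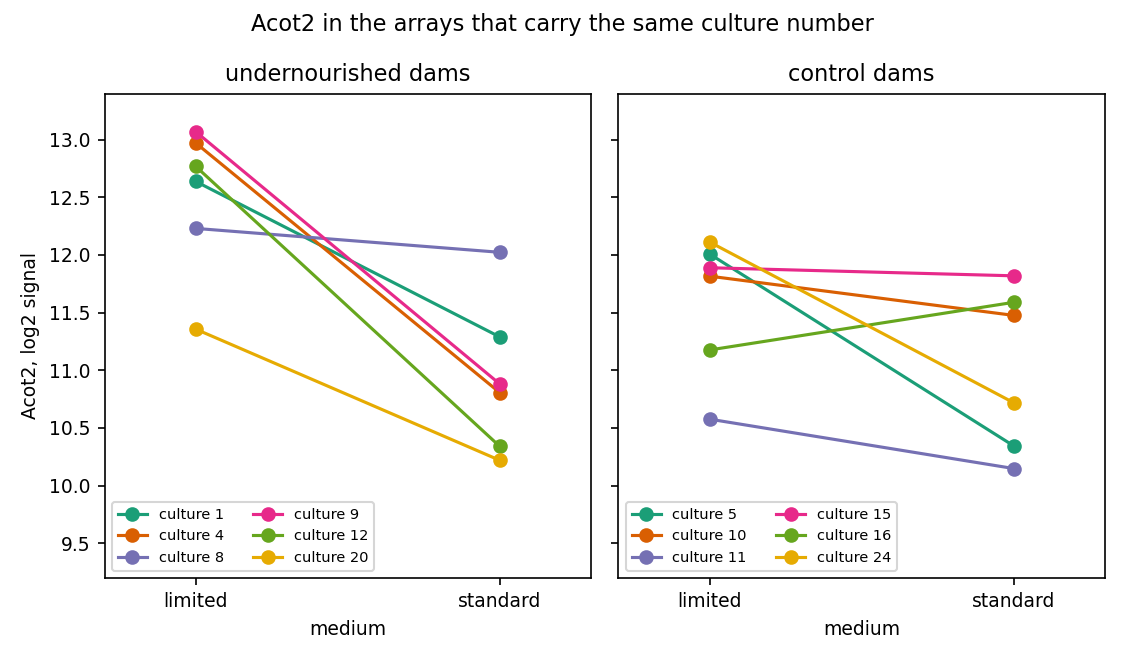
Acot2 log2 signal (y axis) in limited and standard medium (x axis), with a line joining the arrays of each culture number, in undernourished cultures (left panel) and control cultures (right panel). All 6 undernourished lines and 5 of 6 control lines are higher in limited medium, and the single reverse line is control culture 16. The labels state no pairing of the joined arrays.

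Acot1, the cytosolic relative of Acot2, did not pass in any comparison. It ran from 4.64 through a median of 5.22 to 5.45 in undernourished limited cells and from 4.47 through 5.17 to 5.46 in undernourished standard cells. In control limited cells it ran from 4.96 through 5.14 to 5.46, and in control standard cells from 4.87 through 5.02 to 5.46. The groups overlapped almost fully, and the difference over both diets was 0.05 ± 0.11 (SE, interval -0.18 to 0.28, limma adjusted p = 0.86). Its group means lay below every array's median signal, and no detection calls were used, so whether it lay above background is unknown. In the RefSeq gene table Acot2 and Acot1 lie in a run with Acot4, Acot3 and Acot5 on chromosome 12. These genes are close copies, so probes could be shared and each signal is uncertain to that extent. Acot3, Acot4 and Acot5, which include peroxisomal enzymes, differed by -0.11, 0.12 and 0.07. Of 12 other acyl-CoA thioesterases measured, 0 passed in limma in any of the medium comparisons. Their median difference over both diets was 0.02, beside 0.005 over all genes, of which 6.84% passed.

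Ppara, the receptor most tied to the fasting response, ran from 6.13 through a median of 6.23 to 6.47 in undernourished limited cells and from 5.92 through 6.06 to 6.19 in undernourished standard cells. In control limited cells it ran from 6.01 through 6.41 to 6.63, and in control standard cells from 5.91 through 6.18 to 6.36. The limited medians were higher with both diets and the ranges overlapped. The difference over both diets was 0.22 ± 0.07 (SE), an interval of 0.07 to 0.36 and a 1.16-fold ratio, higher in 11 of 12 cultures, with a limma adjusted p of 0.0667. With control culture 16 left out the adjusted p was 0.0391, and with undernourished culture 20 left out 0.0488. Over the 12 fits that each left out 1 culture, it ran from 0.0391 to 0.144. With control culture 16 and undernourished culture 20, both high in fibroblast markers, left out together the difference was 0.26 ± 0.07 and the adjusted p 0.0256. The difference was 0.22 in each diet, with adjusted p of 0.341 in undernourished and 0.359 in control cultures.

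Ppard, the receptor that muscle is known to express most among the PPARs, had group means of 7.60 ± 0.27 in undernourished limited, 7.58 ± 0.21 in undernourished standard, 7.64 ± 0.05 in control limited and 7.63 ± 0.15 in control standard cells (SD, n = 6 each). The difference over both diets was 0.01 ± 0.08 (SE, interval -0.14 to 0.17). Its spread was wider in undernourished arrays, where culture 20 was the lowest in standard medium at 7.16 and the highest in limited medium at 8.00. Without that culture and control culture 16 the difference over both diets was -0.07 ± 0.07.

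Cd36 carries long-chain fatty acids across the plasma membrane, and it varied most between cultures among the members other than Acot2. It ran from 7.72 through a median of 8.36 to 8.88 in undernourished limited cells and from 7.36 through 8.09 to 9.12 in undernourished standard cells. In control limited cells it ran from 8.22 through 8.65 to 9.15, and in control standard cells from 7.16 through 8.56 to 9.24. The standard ranges enclosed the limited ones with both diets. The difference was 0.25 ± 0.22 (SE), with an interval of -0.19 to 0.70 (limma adjusted p = 0.566).

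Fabp3, the binding protein that carries fatty acids through the cytosol of heart and muscle, varied least. Its group means were 9.42 ± 0.12 in undernourished limited, 9.30 ± 0.17 in undernourished standard, 9.53 ± 0.05 in control limited and 9.37 ± 0.09 in control standard cells (SD, n = 6 each). The lowest control limited array and the highest control standard array both stood at 9.47 after rounding, so those groups overlapped only at that edge. The difference was 0.14 ± 0.05 (SE, interval 0.03 to 0.26), higher in 9 of 12 cultures, with a limma adjusted p of 0.119. Leaving out each culture in turn gave adjusted p from 0.0288 (without undernourished culture 9) to 0.239 (without undernourished culture 20). With quantile normalization the adjusted p was 0.231, and with the mean of all Fabp3 clusters it was 0.276. A dimmer second Fabp3 cluster, with a mean of 5.75 against 9.40 for the one used, was higher in 7 of 12 cultures by 0.08 ± 0.26 (SD).

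Plin2, which coats lipid droplets and is known to accumulate with stored fat, was 7.99 ± 0.41 in undernourished limited, 8.22 ± 0.25 in undernourished standard, 8.16 ± 0.17 in control limited and 8.19 ± 0.15 in control standard cells. Its difference was -0.13 ± 0.10 (SE, interval -0.34 to 0.09, limma adjusted p = 0.538). Angptl4, which blocks lipoprotein lipase and is a target of PPARs in many tissues, was 5.04 ± 0.12, 5.09 ± 0.28, 5.09 ± 0.12 and 5.09 ± 0.19 in the same 4 groups. Its difference was -0.03 ± 0.08, from means below every array's median. Ucp3, a carrier of the inner mitochondrial membrane that rises in fasted muscle, was 5.62 ± 0.38, 5.80 ± 0.26, 5.62 ± 0.36 and 5.61 ± 0.57 in those groups (SD, n = 6 each). Its difference was -0.08 ± 0.15 (SE), with an interval of -0.40 to 0.23.

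**Figure D3:**
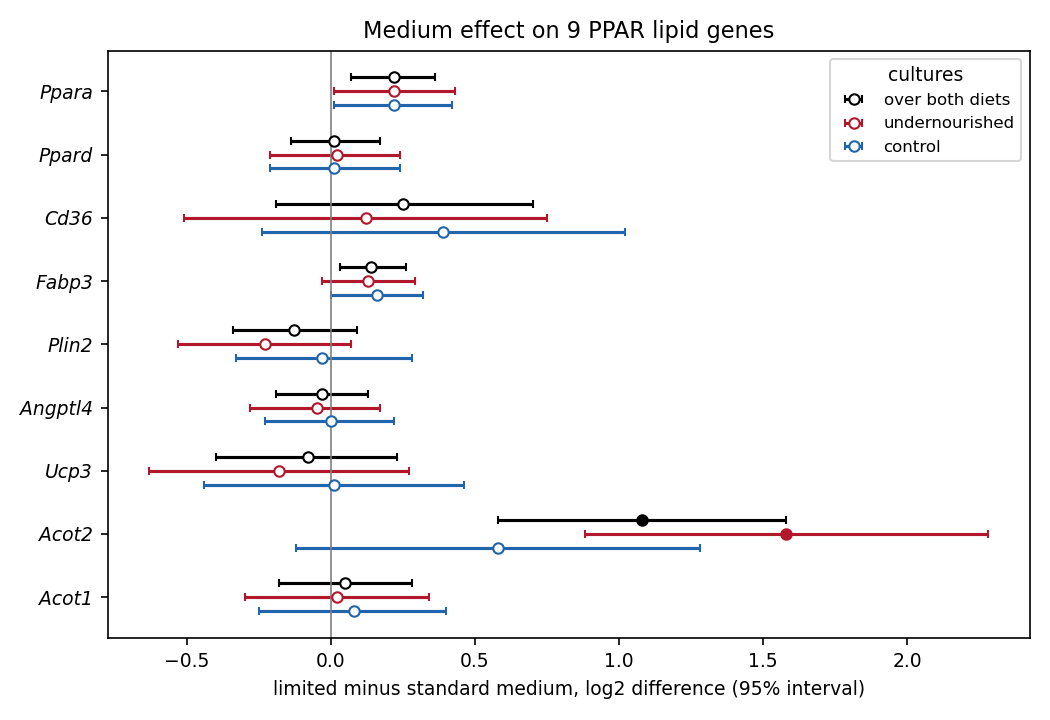
Difference in log2 signal, limited minus standard medium (x axis), with its 95% interval for each of the 9 genes (y axis), over both diets and within each diet. Filled points passed the adjusted threshold: Acot2 over both diets at 1.08 and in undernourished cultures at 1.58.

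With maternal diet (undernourished minus control), 0 of 9 members passed in limma in either medium or over both media, where 0% of all genes passed. Acot2 was 0.91 ± 0.34 (SE) higher in undernourished cells in limited medium, with an unadjusted p of 0.0132 and an adjusted p of 0.894, and it was the 1 member with an unadjusted p under 0.05. In standard medium its diet difference was -0.09 ± 0.34. Averaged over both media it was 0.41 ± 0.25 (12 cultures, adjusted p = 0.999). The other 8 members differed by -0.40 (Cd36) to 0.01 (Ucp3) in limited medium and by -0.12 (Cd36) to 0.19 (Ucp3) in standard medium, with no unadjusted p under 0.05. Across all genes, 1206 had an unadjusted p under 0.05 for the diet in limited medium (5.44%) and 697 in standard medium (3.14%).

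Other genes of the pathway were counted from lists chosen with earlier results known. Among 15 PPAR partners and coregulators, over both diets, Rxrb, a retinoid X receptor that pairs with PPARs, rose by 0.32 ± 0.06 (SE, limma adjusted p = 0.00214). Ppargc1b, a coactivator of PPARs that promotes oxidative metabolism, fell by 0.53 ± 0.08 (adjusted p = 0.000455). The other 13 did not pass, and the median was -0.06, beside 0.005 over all genes, of which 3.56% rose and 3.28% fell. Both also passed within undernourished cultures, Rxrb at 0.35 and Ppargc1b at -0.60, while 0 of the 15 passed in limma within control cultures. Of all genes, 1.46% passed in undernourished and 0.343% in control cultures. The difference between diets did not pass for any of them.

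Among 39 other PPAR target genes, 4 rose and 0 fell over both diets, with a median of 0.08. Of all genes tested, 3.56% rose and 3.28% fell there, with a median of 0.005. The risers were Acaa2, the last enzyme of mitochondrial beta-oxidation, by 0.55 ± 0.11, Pnpla2, the first lipase of stored triglyceride, by 0.35 ± 0.08, Acadvl, the first enzyme for very long chains, by 0.29 ± 0.07, and Ech1, an auxiliary isomerase of beta-oxidation, by 0.27 ± 0.08 (SE, limma adjusted p from 0.00391 for Acaa2 to 0.0389 for Ech1). A trio of widely used PPAR markers did not pass: Pdk4, which shuts off pyruvate oxidation, at 0.46 ± 0.22 (adjusted p = 0.231), Cpt1a, which admits fatty acids to mitochondria, at -0.30 (adjusted p = 0.114), and the hormone Fgf21 at 0.66 ± 0.34 (adjusted p = 0.285). Pnpla2 was the 1 riser of 14 droplet proteins and lipases, and the lipoprotein receptor Vldlr, at 0.72 ± 0.20 (adjusted p = 0.0247), that of 22 uptake and binding genes. None of 5 uncoupling proteins and carriers or 3 angiopoietin-like genes passed. Of the 4 PPAR targets and Vldlr, none passed within a single diet.

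Of the cell type markers, 4 genes passed for the medium over both diets, where 6.84% of all genes passed. The myotube genes Ckm and Tnni2 rose by 0.47 ± 0.12 and 0.49 ± 0.11 (SE), and the other 13 myotube markers did not pass. The satellite cell gene Vcam1 fell by 0.45 ± 0.10 and the tendon gene Scx rose by 0.46 ± 0.11 (SE, limma adjusted p from 0.00854 to 0.017 for the 4 genes). Of the 15 myotube markers, 12 were higher in limited medium, with a median of 0.11 beside 0.005 over all genes. Their mean was 11.13 ± 0.17 in undernourished limited and 10.90 ± 0.27 in undernourished standard cells (SD). In control cells it was 11.24 ± 0.25 in limited and 11.03 ± 0.34 in standard medium (SD). Adipocyte, endothelial, leukocyte, fibroblast, smooth muscle and glial lists had no gene past the threshold over both diets. Their part in the Acot2 result was not tested.

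No pair of members passed a test for responding together. In the heat map of responses, control culture 11 was the only 1 of 12 in which all 9 were higher in limited medium. In undernourished culture 9, whose same-numbered arrays correlated at -0.05 after group means were removed, only 3 of the 9 were higher. Among the 36 pairs of members, the responses of the 12 cultures had a positive Pearson r in 18, 4 had an unadjusted permutation p under 0.05 and 0 passed after adjustment over the 36 pairs by Pearson or by Spearman correlation, the lowest adjusted p being 0.275. The widest r were -0.67 for Ppara with Ppard and 0.64 for Plin2 with Ppard.

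**Figure D4:**
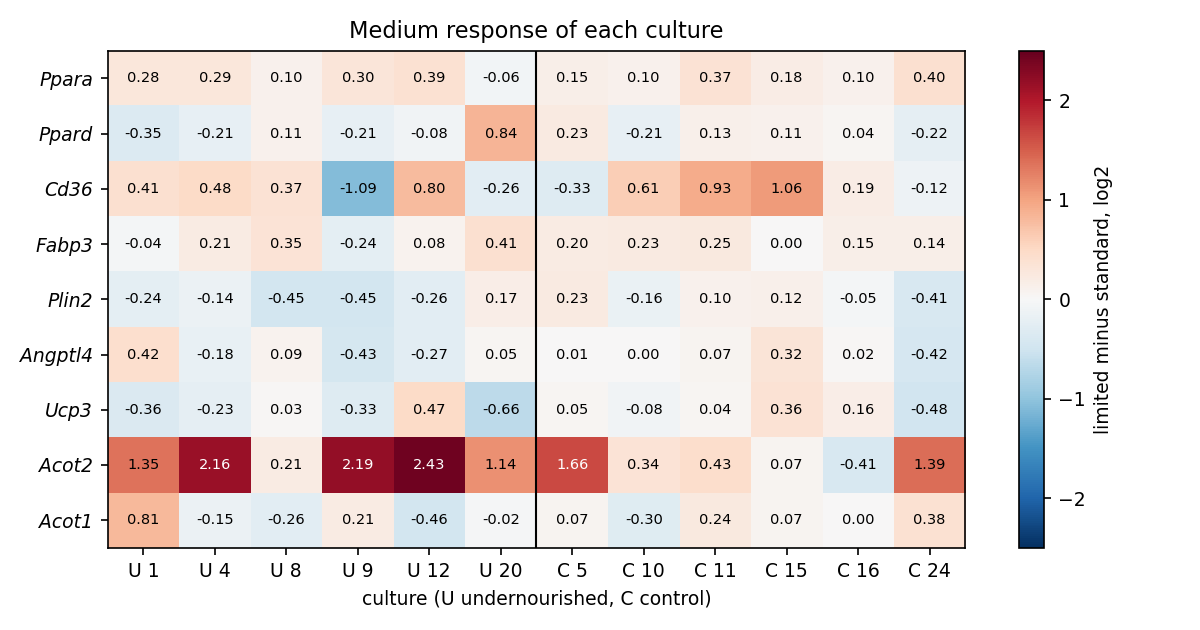
Limited minus standard difference in log2 signal (colour) for the 9 genes (rows) in each of the 12 cultures (columns, undernourished then control). The Acot2 row is the widest in range, from -0.41 to 2.43.

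Which genes varied most like the members was read over the 24 arrays after each group's mean was subtracted, as Pearson r. Genes below the median level were left out, as were gene models, clone names, microRNAs, and olfactory and vomeronasal receptors. The points share the array and its normalization, so these values are a description. For Acot2 the 3 closest were Hspa13, a stress chaperone of the endoplasmic reticulum, Cdsn and Bet1, a vesicle fusion protein of the secretory pathway, at 0.89 each. None of these 3 passed for the medium over both diets. Their differences were 0.32, 0.31 and 0.23, with limma adjusted p of 0.256, 0.216 and 0.393. For Cd36 the 3 closest were the muscle genes Klhl41 (0.85), Myoz2 (0.83) and Tcap (0.83). For Ppara they were Nrap (0.77), a sarcomere protein, Atp9a (0.74) and Tmem87a (0.74). For Fabp3 they were Mtif3 (0.76), U2af1l4 (0.75) and Yjefn3 (0.72).

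Acot2 was also set against 11 genes of the endoplasmic reticulum stress response that earlier results of these data had named. Its r was positive with 11 of 11, from 0.33 (Derl3) to 0.88 (the stress-induced pseudokinase Trib3), with a median of 0.66. It was 0.85 with Herpud1, a degradation factor, 0.78 with the stress transcription factor Ddit3 and 0.77 with the chaperone Hspa5. The median r of the other 8 members with these 11 genes ran from -0.45 (Ppard) to 0.00 (Angptl4). A single sign over all 11 was not particular to Acot2. Ppard was negative with all 11 (-0.64 to -0.14), as was Fabp3 (-0.43 to -0.09). Acot2's own median r was 0.13 with the 39 other PPAR targets (-0.20 to 0.69, 30 positive) and 0.08 with the 12 other thioesterases (-0.41 to 0.37). It was -0.15 with the 8 other members (-0.38 to 0.08) and -0.03 with the 15 PPAR partners and coregulators (-0.39 to 0.66). With the 22 uptake and binding genes it was 0.03, and single genes ran from -0.41 to 0.85. Over all tested genes it was 0.00 (-0.91 to 0.90). Single lipid genes thus reached r as high as most of the stress genes. Over the responses of the 12 cultures, permutation tests of Acot2 with these 11 genes passed adjustment over the 11 in 7 by Pearson and 8 by Spearman correlation, with r from 0.44 to 0.90. Because the 11 genes were chosen with results of the same arrays known, those tests are no independent evidence.

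**Figure D5:**
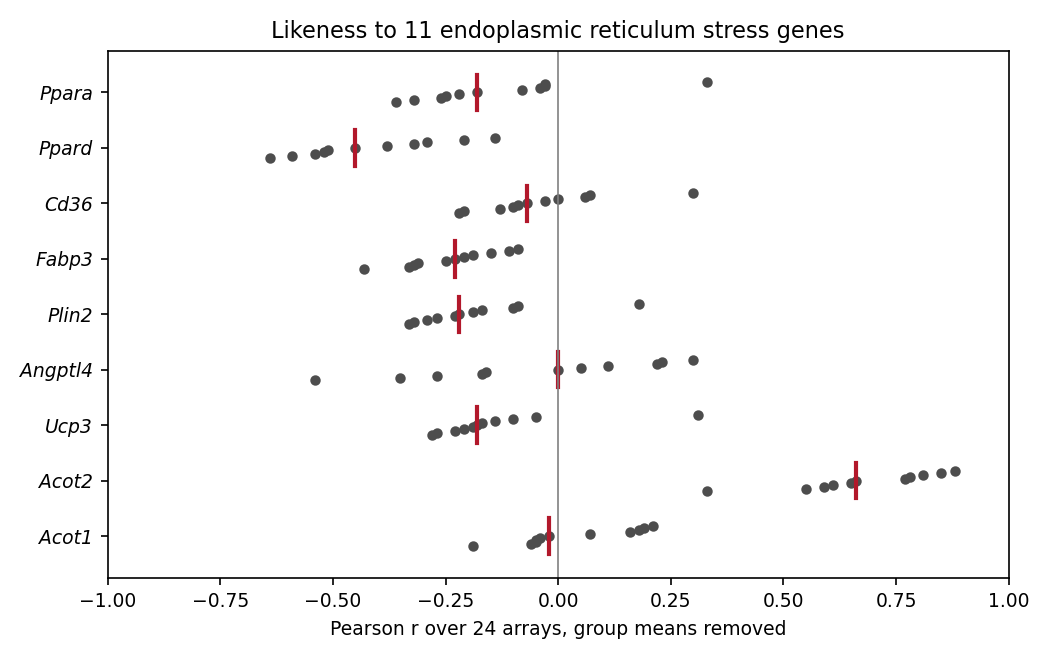
Pearson r over 24 arrays, group means removed (x axis), of each of the 9 genes (y axis) with 11 endoplasmic reticulum stress genes. Points are stress genes and the red bar is their median, 0.66 for Acot2 and at or below 0.00 for the other members.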

How the data were processed

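RNA of 24 cultures was measured on single-colour arrays. Per the submitters' processing notes, the authors made the deposited log2 values with RMA in Affymetrix Expression Console. Tool versions and the genome build were not given in the sources used here. Base 2 was read from the range of the values, 1.69 to 14.1. Of 41345 clusters, 23521 carried a single gene symbol and 1814 more than 1, and 16010 are unnamed here. For 1082 genes with several clusters the one with the highest mean was used, which left 22180 genes.

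All genes were fitted with limma 3.58.1 (R 4.3.3, lmFit and eBayes, two-sided) on 24 arrays in 4 groups, with Benjamini-Hochberg adjustment over all 22180 genes and a threshold of 0.05. For maternal diet over both media, the arrays of a culture number were averaged first. Relations over 12 cultures used 100000 permutations. The members and gene lists were chosen with earlier results of these data known. Named beside the members were called list genes (up to 4 a list) and the 3 genes most like each of 4 members. Other list genes given with values, such as Pdk4, Cpt1a, Fgf21 and Acot3 to Acot5, were named after their values were seen. The procedure was tested on simulated data. Precision is limited by the number of arrays. Alternatives covered normalization, a level filter, cluster choice, array weights, the prior, the samples fitted, a replicate block and leaving out cultures.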

Additional observations from a re-analysis of the deposited data

Results flagged for a closer look

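Of 54 sets of 6 values tested with Dixon's ratio (critical value 0.625), 2 held a value far from the rest, and chance flags about 1 set in 20. Fabp3 in undernourished standard cells was 9.63 in culture 9, against 9.13 to 9.30 in the other arrays of the group (ratio 0.66). Ppard in undernourished standard cells was 7.16 in culture 20, against 7.60 to 7.73 in the other arrays of the group (ratio 0.77).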

How the results depend on the processing

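The rise of Acot2 over both diets held in every alternative run, with 0.97 to 1.22 when a culture was left out. The number of members called there, 1, became 2, with Ppara the second, with genes below the median level dropped, with array weights, with the replicate block, without control culture 16 and undernourished culture 20, and at a threshold of 0.1; leaving out each culture gave 1 to 2. In undernourished cultures the number of members called, 1, became 0 with only the groups compared, and ran from 0 to 1 when a culture was left out. Signs turned for values near 0: Ppard over both diets was -0.04 with array weights and -0.07 without cultures 16 and 20, and -0.07 to 0.05 when a culture was left out. Acot1 ran from -0.03 to 0.10 and Angptl4 from -0.07 to 0.02. The Acot2 diet difference in standard medium was 0.07 with array weights, 0.17 without those cultures, and -0.31 to 0.07 when a culture was left out. The cause was not tested. Same-numbered arrays correlated at -0.05 to 0.56 after group means were removed, and 10 of 12 cultures, all but undernourished cultures 9 and 12, were closest to their own number. This is a hint from the data that most numbers mark shared variation; the labels state no pairing. With the replicate block Acot2 had an adjusted p of 0.00144 and Ppara of 0.0162 over both diets. Across all genes, the 1517 called over both diets became 2597 with the block and 991 without control culture 5. The 324 in undernourished cultures became 59 with only the groups compared, 1007 with the block and 51 without undernourished culture 4. The 76 in control cultures became 551 with the block and 10 without control culture 5.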

Other observations

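Levels of the 9 members were set against the mean of 15 myotube markers over the 12 cultures, a comparison chosen after the data were seen. None of the 9 relations passed adjustment by permutation test. Ppara had a Pearson r of 0.68 (permutation p = 0.0152, adjusted p = 0.0946) and a Spearman rho of 0.76 (p = 0.00633, adjusted p = 0.057), with r of 0.54 within undernourished and 0.71 within control cultures, and 0.62 without the 2 cultures farthest from the median. Cd36 had r of 0.65 (p = 0.021, adjusted p = 0.0946) and rho of 0.52 (p = 0.0827, adjusted p = 0.253), with 0.19 within undernourished and 0.88 within control cultures, and 0.80 without the 2 farthest. Acot2 had r of -0.39 (p = 0.21, adjusted p = 0.307) and rho of -0.39 (p = 0.209, adjusted p = 0.377).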
